A study of Clytia hemisphaerica and Astroides calycularis and Pocillopora acuta with 16 samples.

Results

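Uncut planulae of the coral Astroides calycularis were sequenced beside the aboral and oral ends of bisected larvae of the same species. They made up 2 of the 16 libraries of the series (uncut 1 and uncut 2), and they were chosen by their labels. They were set against 2 libraries of aboral ends and 2 of oral ends, 4 end libraries in all. The question was whether whole larvae gave the mixture of both ends, and which genes lay outside what either end gave. Per the study, the larvae were released by wild colonies and held to be competent to settle, each library was made from a pool, and larvae of several mother colonies, thought to differ in genotype, were pooled. The labels name no treatment. The ends differed from the uncut larvae in that they had been cut by hand with microdissection scissors before lysis. Per the study's methods, a pool also held fewer uncut larvae than ends, and the uncut larvae were other individuals than the cut ones. The effects of the cut, of the extra handling and of the makeup of the pools cannot be told apart.

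A planula is the ciliated, free-swimming larva of cnidarians. It swims with the aboral pole in front and, in corals, settles on that pole, while the mouth of the polyp forms at the oral pole. Wnt ligands are made mainly at the oral pole of cnidarian larvae. Transcription factors such as Six3/6 and FoxQ2 together with secreted Wnt antagonists mark the aboral pole. For a gene made at 1 end, a mixture of both ends gives a level between the levels of the ends.

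The total count was 23146999 in uncut 1 and 25222426 in uncut 2, and 23836095 to 26980344 in the ends, over 28330 gene models. Levels are given as CPM, counts scaled to a common library size with TMM factors (0.981 to 1.029 here). The first principal component held 43.2% of the variance and ordered the libraries along the axis. On it the uncut libraries stood at -0.5 and 6.8, the aboral libraries at 45.1 and 63.2 and the oral libraries at -64.1 and -50.5. The second component (25.7%) had replicate 1 above replicate 2 in each group. On the third (15.3%) both uncut libraries, at -41.1 and -17.9, lay below all end libraries, at -9.9 to 37.1. Log2 CPM of the uncut pair correlated across genes at r = 0.974, against 0.977 for the aboral and 0.973 for the oral pair. Of 13038 genes with a mean of at least 5 CPM, 281 (2.16%) differed over 2-fold between the uncut libraries, against 431 (3.31%) between the aboral and 534 (4.1%) between the oral libraries. Among these, replicate 1 was the higher for 182 genes in uncut larvae, for 399 in aboral ends and for 474 in oral ends, so the replicate difference ran mostly one way in the ends.

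No gene passed the test between uncut larvae and the mixture of both ends. For this comparison the counts of aboral 1 and oral 1 were added after scaling to equal size, likewise those of aboral 2 and oral 2, and the 2 uncut libraries were set against these 2 libraries of summed ends. Of 21657 genes tested with edgeR's quasi-likelihood test, 0 passed an adjusted p under 0.05, which is 0%, and the smallest adjusted p was 0.999. An unadjusted p under 0.05 was found for 731 genes (3.38%), 352 higher and 379 lower in uncut larvae. DESeq2 called 39 genes on the same sums, 23 higher and 16 lower, all of them with both uncut libraries outside all 4 end libraries. With 2 libraries on each side, edgeR's adjusted p stayed at 0.999 even for gene models that differed by 3.16 on the log2 scale, so the absence of calls does not show that uncut larvae equal the mixture. All genes together had a median log2 fold change of 0, the quartiles were -0.15 and 0.17, and the median standard error was 0.23.

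Against a single end, most genes called higher in uncut larvae were genes of the other end. Of 21254 genes tested, 116 (0.546%) were called against aboral ends, 96 (0.452%) higher and 20 (0.0941%) lower in uncut larvae. Against oral ends 216 genes (1.02%) were called, 201 (0.946%) higher and 15 (0.0706%) lower. Of the 96 genes higher in uncut larvae than in aboral ends, 86 stood on the study's list of oral genes, and of the 201 higher than in oral ends, 174 stood on its list of aboral genes. Those lists were made from the same aboral and oral libraries and are no independent evidence of direction. With the replicate number as a block the calls came to 444 higher and 268 lower against aboral ends, and to 438 higher and 172 lower against oral ends. Leaving out any 1 of the uncut or aboral libraries left 13 to 16 genes higher and 0 to 2 lower than in aboral ends, and leaving out any 1 of the uncut or oral libraries left 99 to 133 higher and 0 to 6 lower than in oral ends. In bulk RNA, fewer cells of a type and less RNA per cell cannot be told apart.

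Genes of the axis took a place near the middle. On a scale that put the mean of oral ends at 0 and that of aboral ends at 1, the 221 tested genes of the study's aboral list had a median position of 0.495 in uncut larvae, with quartiles of 0.424 and 0.586. The 147 tested genes of its oral list had a median of 0.536, with quartiles of 0.455 and 0.603. Uncut larvae lay between both means for 219 of 221 aboral genes and for 147 of 147 oral genes, and 2 aboral genes lay above the aboral mean. The study chose these genes because they differed between these same aboral and oral libraries. Whole larvae would thus lie between the means almost by construction. Summed over the aboral list, the level was 22256 CPM in uncut larvae, 40415 CPM in aboral ends and 5163 CPM in oral ends. Summed over the oral list, it was 10948 CPM in uncut larvae, 4758 CPM in aboral ends and 18684 CPM in oral ends. Both sums in uncut larvae lay near the midpoint of the ends, at positions of 0.485 and 0.556.

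**Figure D1:**
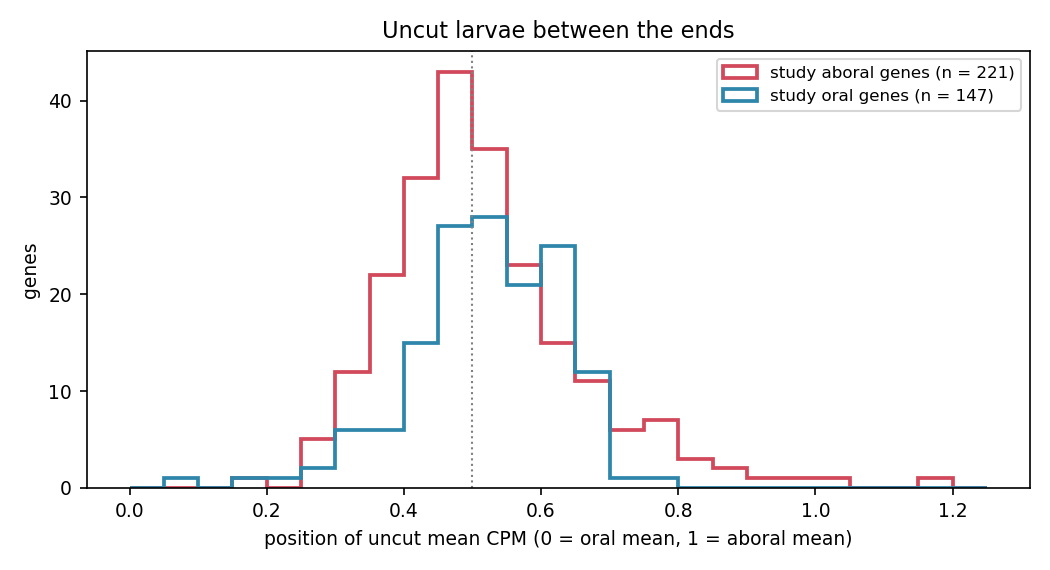
Position of the uncut mean CPM between the oral mean (0) and the aboral mean (1), as a count of genes per bin of 0.05 for the study's aboral genes (red, n = 221) and oral genes (blue, n = 147). Both distributions centre near 0.5 (dotted line), with medians of 0.495 and 0.536.

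The 7 aboral axis genes showed this gene by gene. Six3/6 (STRG.44164), a homeodomain regulator of the aboral pole, had 147 and 134 CPM in uncut larvae, against 222 and 228 CPM in aboral and 57.9 and 48.2 CPM in oral ends. The forkhead gene FoxQ2a-clytia (STRG.21847), of the FoxQ2 factors of the aboral pole, had 31.2 and 29.8 CPM in uncut larvae, against 59.0 and 76.3 CPM in aboral and 3.46 and 3.50 CPM in oral ends. A further homeodomain gene of the aboral pole (STRG.4567) had 58.9 and 53.1 CPM in uncut larvae, against 88.0 and 93.1 CPM in aboral and 19.2 and 16.4 CPM in oral ends. For all 3 transcription factors the uncut mean lay between the means of the ends. They belong to the study's aboral list, where this held for 219 of 221 genes.

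Among the signalling genes, SFRP (STRG.18883), a secreted antagonist that binds Wnt ligands, had 126 and 128 CPM in uncut larvae, against 217 and 262 CPM in aboral and 22.8 and 21.6 CPM in oral ends. DKK3 (STRG.12234), of the Dickkopf family of secreted Wnt modulators, had 14.7 and 11.7 CPM in uncut larvae, against 25.95 and 25.58 CPM in aboral and 0.211 and 0 CPM in oral ends. FGFa1 (STRG.34672), a fibroblast growth factor ligand, had 31.0 and 14.7 CPM in uncut larvae, against 49.4 and 42.8 CPM in aboral and 4.09 and 3.72 CPM in oral ends. The uncut pair differed by about as much as it differed from the aboral pair in FGFa1, and hardly at all in SFRP. A Frizzled receptor (STRG.44114) was low throughout, with 0.685 and 0.641 CPM in uncut larvae, 1.21 and 1.75 CPM in aboral and 0.169 and 0.253 CPM in oral ends.

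Against the summed ends these 7 genes had log2 fold changes of -0.34 (SE 0.42, Frizzled) to 0.05 (SE 0.12, STRG.4567), a median of -0.04 beside 0 over all genes, and 0 calls. Against oral ends 6 of 7 were called higher in uncut larvae, beside 0.946% of all genes. Six3/6 was higher by 1.41 on the log2 scale (SE 0.14, adjusted p = 0.00712) and SFRP by 2.52 (adjusted p = 7.30e-04). Frizzled was not called. Against aboral ends FoxQ2a-clytia was called lower at -1.15 (adjusted p = 0.0441), beside 0.0941% of all genes. With the replicate block 5 of 7 were called lower than in aboral ends, beside 268 of all 21254 genes, and 6 of 7 higher than in oral ends, beside 438. Of the 13 Wnt ligand genes 12 were tested, and most ran the other way. Against aboral ends 7 were called higher, beside 0.452% of all genes (11 with the block, beside 444 of 21254 genes). Against oral ends 1 was called higher and 2 lower, beside 0.946% and 0.0706% of all genes (1 and 4 with the block, beside 438 and 172). Their median log2 fold change was 2.39 against aboral ends, -0.8 against oral ends and 0 against the summed ends. STRG.10912, on the study's aboral list, stood highest of them against the summed ends at 0.40. It had 5.44 and 3.89 CPM in uncut larvae, against 5.44 and 7.18 CPM in aboral and 0.718 and 0.867 CPM in oral ends. This was the Wnt gene called higher than in oral ends (2.54, adjusted p = 0.0156). STRG.9929 stood lowest at -0.48.

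**Figure D2:**
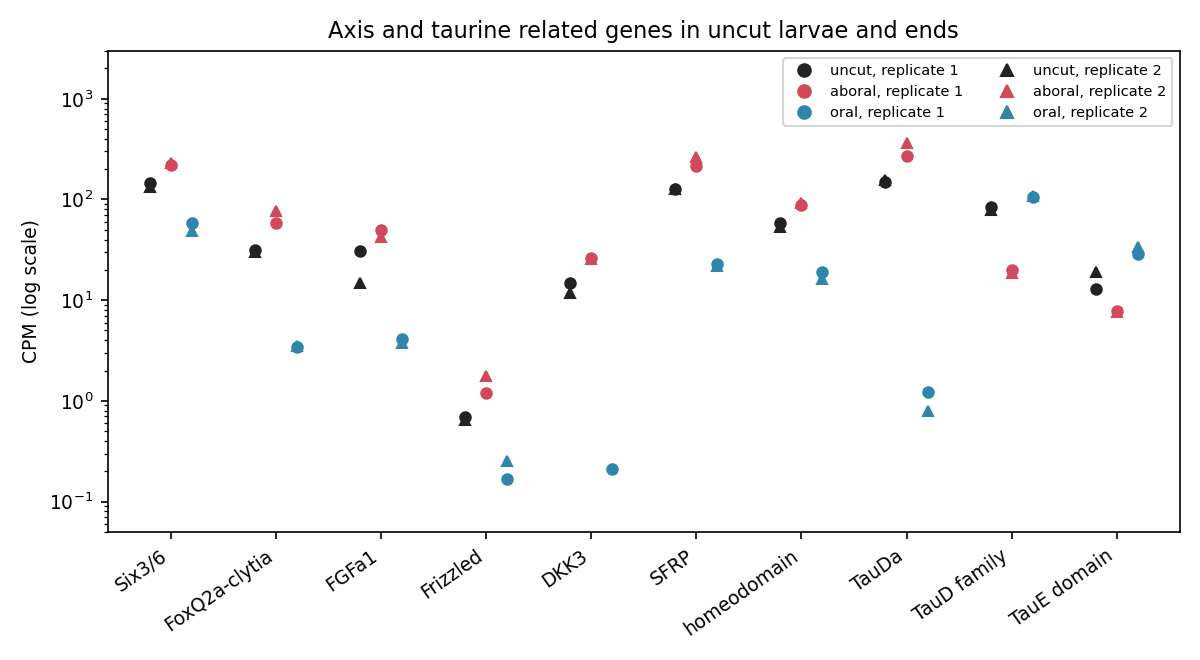
CPM on a log axis of the 7 aboral axis genes and 3 taurine related genes in uncut larvae (black), aboral ends (red) and oral ends (blue), with circles for replicate 1 and triangles for replicate 2. Uncut points lie between those of the ends in each gene; DKK3 in oral 2 was 0 and is not drawn.

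Genes with domains of taurine metabolism also had uncut levels between those of the ends, some of them higher in aboral and others in oral ends. TauDa (STRG.14077) holds the domain of taurine dioxygenases, enzymes that in bacteria release sulfite from taurine. It had 150 and 155 CPM in uncut larvae, against 273 and 365 CPM in aboral and 1.22 and 0.795 CPM in oral ends. Its log2 fold change against the summed ends was -0.06 (SE 0.17). A second gene with this domain (STRG.25952), on the oral list, had 84.5 and 79.2 CPM in uncut larvae, against 20.1 and 18.6 CPM in aboral and 106 and 109 CPM in oral ends. Its log2 fold change was 0.38 (SE 0.12, adjusted p = 0.999) against the summed ends and 2.08 (adjusted p = 0.0029) against aboral ends. So the uncut level of this gene stood nearer to the oral than to the aboral level.

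The TauE domain gene (STRG.35233), of a family of sulfite exporters in bacteria, had 13.0 and 18.9 CPM in uncut larvae, against 7.74 and 7.62 CPM in aboral and 28.5 and 33.6 CPM in oral ends. GABRB1-like (STRG.2823), a subunit of GABA-gated chloride channels in animals, had 15.5 and 18.6 CPM in uncut larvae, against 28.0 and 36.7 CPM in aboral and 9.12 and 12.1 CPM in oral ends. A transporter of the betaine, carnitine and choline family (STRG.30319) had 511 and 578 CPM in uncut larvae, which overlapped the 459 and 621 CPM of aboral ends and lay above the 432 and 470 CPM of oral ends. None of these 3 was called against either end or against the sums. With the block, TauE (adjusted p = 0.0269 and 0.0251) and GABRB1-like (adjusted p = 0.0141 and 0.0398) were called against aboral and against oral ends, and TauDa was called lower than in aboral ends (adjusted p = 0.0198).

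Neuropeptide precursors, from which neurons cut short amidated peptides, differed little from the mixture. HFRIamide (STRG.43911) had 182 and 188 CPM in uncut larvae, against 231 and 258 CPM in aboral and 116 and 103 CPM in oral ends. RFamide (STRG.11240) had 130 and 157 CPM in uncut larvae, against 191 and 207 CPM in aboral and 116 and 97.1 CPM in oral ends. GVWamide (STRG.21557) ran the other way, with 10.7 and 8.98 CPM in uncut larvae, against 5.44 and 5.80 CPM in aboral and 17.1 and 15.7 CPM in oral ends. In all 3 the uncut pair lay between the pairs of the ends, an order whose share over all genes is not given here.

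The precursor of GLWamide (STRG.15971), a peptide family that triggers metamorphosis in several cnidarians, was less regular. It had 118 and 145 CPM in uncut larvae, against 152 and 87.9 CPM in aboral and 145 and 67.7 CPM in oral ends, so that replicate 2 was low at both ends but not in uncut larvae. The 4 precursors had log2 fold changes between -0.16 and 0.22 against the summed ends, a median of -0.01, and 0 calls in any of the 3 comparisons. With the block HFRIamide was called higher than in oral ends (adjusted p = 0.0204).

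Markers of cell types that the study placed along the axis stayed within the range of the ends. Uncut larvae lay outside all ends for 0 of 28 tested apical cell markers, 0 of 38 gland mucous markers, 0 of 18 neurosecretory 1, 0 of 7 neurosecretory 2 and 0 of 17 GLWamide neuron markers, against 5.47% above and 5.65% below over all genes. A mixture lies inside the range of the ends by construction for a marker that differs strongly between them, so these counts are no test. Their median log2 fold changes against the summed ends were -0.07, -0.11, 0.12, -0.12 and 0.08. Against oral ends, 20 apical, 12 gland mucous, 14 neurosecretory 1, 3 neurosecretory 2 and 2 GLWamide neuron markers were called higher in uncut larvae, beside 0.946% of all genes. With the replicate block these counts were 24, 23, 15, 4 and 4, beside 438 of all 21254 genes. In the same order of types, 3, 2, 1, 2 and 0 markers were called lower than in aboral ends, beside 0.0941% of all genes. With the block these were 16, 17, 6, 3 and 1, beside 268 of all 21254 genes. The ends of these same libraries had a part in the study's choice of the types.

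Single members ranged more widely. ADAM-like (STRG.11400), a metalloproteinase among the neurosecretory 2 markers and also the lowest of the 24 tested peptidases, had 25.3 and 28.5 CPM in uncut larvae, against 72.3 and 79.2 CPM in aboral and 6.80 and 7.08 CPM in oral ends. Against the summed ends its log2 fold change was -0.61 with an SE of 0.14 (adjusted p = 0.999), and it was called both lower than in aboral ends (-1.49, adjusted p = 0.00969) and higher than in oral ends (1.95, adjusted p = 0.00154). MGT4-like2 (STRG.23410), a glycosyltransferase of gland mucous cells and the lowest of the study's aboral genes, had 1.46 and 1.64 CPM in uncut larvae, against 4.53 and 5.06 CPM in aboral and 1.01 and 0.578 CPM in oral ends. These levels were nearer to the oral ones. The apical list ran from the multicopper oxidase STRG.40383 (-0.54, SE 0.28) to the SET domain gene STRG.37008 (0.92, SE 0.43). The oxidase had 37.6 and 47.6 CPM in uncut larvae, against 89.7 and 155 CPM in aboral and 1.48 and 2.28 CPM in oral ends. With the block the oxidase and MGT4-like2 were called lower than in aboral ends (adjusted p = 0.00386 and 0.0451). The highest of the gland mucous markers was STRG.34508 (0.55), of the GLWamide neuron markers STRG.8550 (1.14, at under 1 CPM in every library) and of the neurosecretory 2 markers STRG.10370 (0.43, likewise under 1 CPM), and the lowest of the neurosecretory 1 markers was STRG.12339 (-0.51). STRG.1617, the highest of the neurosecretory 1 markers at 0.80 (SE 0.32), had 12.7 and 9.62 CPM in uncut larvae, against 16.2 and 9.26 CPM in aboral and 0.0844 and 0.108 CPM in oral ends.

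Markers of the other cell classes were detected in every library and gave 0 calls in the 3 comparisons. With the replicate block, calls against single ends arose in both digestive filament markers and in 1 marker of the specialized epidermis. Ncol3 (STRG.26600), a minicollagen of the stinging capsule of cnidocytes, had 240 and 168 CPM in uncut larvae, against 204 and 232 CPM in aboral and 159 and 147 CPM in oral ends. Nematogalectin-like (STRG.22007), of the stinging tubule, had 27.9 and 33.1 CPM in uncut larvae, against 38.8 and 36.6 CPM in aboral and 24.5 and 19.8 CPM in oral ends, and Znfn845 (STRG.9167) had 8.35 and 6.17 CPM in uncut larvae. The 3 cnidocyte markers had log2 fold changes of 0.04 to 0.15 against the summed ends.

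The 3 gastroderm markers lay between -0.06 (COA-like2, STRG.21214) and 0.15 (Testican2-like, STRG.30766), with ZF-C3H11 (STRG.10901) at 0.03. The digestive filament marker OIT3-like12 (STRG.21702) had 33.3 and 38.9 CPM in uncut larvae, against 14.9 and 16.6 CPM in aboral and 55.4 and 74.7 CPM in oral ends, and Nkx2-8-like (STRG.10304) stood at 0.15. Of the epidermal markers, Sox3 (STRG.11680) had 280 and 274 CPM in uncut larvae, against 215 and 214 CPM in aboral and 360 and 339 CPM in oral ends, STRG.11745 stood at 0.14 and STRG.38537 at 0.02. Of the neural markers, the RNA-binding protein ELAV (STRG.3504) had 176 and 192 CPM in uncut larvae, against 204 and 228 CPM in aboral and 155 and 162 CPM in oral ends. AshA (STRG.10864), of the achaete-scute family of neurogenic factors, stood at 0.07.

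In 3 further markers the replicates of an end differed more than uncut larvae differed from the mixture. Damicornin (STRG.4391), an antimicrobial peptide first known from a coral, had 95.2 and 98.6 CPM in uncut larvae, against 84.6 and 42.4 CPM in aboral and 119 and 60.7 CPM in oral ends. The secretory marker PA2-like2 (STRG.17610) had 61.3 and 52.4 CPM in uncut larvae, against 58.0 and 29.7 CPM in aboral and 58.2 and 28.7 CPM in oral ends. STRG.8870 of the specialized epidermis had 160 and 127 CPM in uncut larvae, against 113 and 55.8 CPM in aboral and 211 and 90.1 CPM in oral ends. In each of them replicate 2 was low at both ends, and uncut 2 was not. AshC (STRG.10853), also of the achaete-scute family, stood at 0.21 (SE 0.18).

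Some genes had both uncut libraries outside all 4 end libraries. With so few libraries this order also arises without any difference between the groups, and the counts were not tested. Of 21254 genes, 1163 (5.47%) had both uncut libraries above and 1200 (5.65%) had both below every end library. The margin was small, with a median of 0.1 on the log2 scale between the nearest uncut and end libraries in both directions. It exceeded 2-fold for 30 genes above and 35 below, of which 2 and 3 had a mean of at least 5 CPM. A name or a domain was known for 34 of the genes above and 57 of those below, out of 1366 such genes tested. Of the 1163 genes above, 4 were called higher than in aboral and 8 higher than in oral ends, beside 0.452% and 0.946% of all genes. Of the 1200 genes below, 5 and 6 were called lower, beside 0.0941% and 0.0706% of all genes.

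The gene models with the smallest p among these had no annotation. STRG.35320 had 17.1 and 17.6 CPM in uncut larvae, against 5.36 and 3.46 CPM in aboral and 5.53 and 3.65 CPM in oral ends. Its log2 fold change was 1.95 with an SE of 0.25 (adjusted p = 0.999) against the summed ends, 1.97 (adjusted p = 0.0549) against aboral and 1.92 (adjusted p = 0.042) against oral ends. STRG.12960 had 24.2 and 10.5 CPM in uncut larvae, against 1.81 and 1.67 CPM in aboral and 1.60 and 2.64 CPM in oral ends. Its log2 fold change was 3.16 (SE 0.44), and it was called against both ends (adjusted p = 0.0457 and 0.0384), although the uncut libraries differed from each other by more than 2-fold.

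STRG.36363 had 74.6 and 58.8 CPM in uncut larvae, against 31.8 and 39.8 CPM in aboral and 22.0 and 22.4 CPM in oral ends, and was called against oral ends (log2 fold change 1.59, adjusted p = 0.0105). STRG.25873 had 7.88 and 6.77 CPM in uncut larvae, against 2.80 and 2.75 CPM in aboral and 1.82 and 2.46 CPM in oral ends, and was called against oral ends (adjusted p = 0.0309). STRG.12687 had 4.84 and 5.17 CPM in uncut larvae, against 0.529 and 1.49 CPM in aboral and 0.549 and 0.686 CPM in oral ends, with 0 calls. None of the 5 passed edgeR's test against the summed ends. All 5 were among the 39 genes that DESeq2 called on the same sums, with adjusted p between 3.49e-09 (STRG.12960) and 0.00169 (STRG.25873), against 0.999 by edgeR's test. With the replicate block all 5 were called higher than in aboral and in oral ends.

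Below the ends stood STRG.31598, with 6.81 and 6.73 CPM in uncut larvae, against 20.1 and 30.0 CPM in aboral and 19.9 and 26.4 CPM in oral ends. Its log2 fold change was -1.82 (SE 0.21), with the smallest unadjusted p of all genes, 1.79e-04 by edgeR's test, and it was called lower than in aboral (adjusted p = 0.0375) and in oral ends (adjusted p = 0.0266). STRG.32116 had 22.6 and 22.8 CPM in uncut larvae, against 47.1 and 50.5 CPM in aboral and 38.3 and 45.2 CPM in oral ends, and was called against both ends (adjusted p = 0.0324 and 0.0439). STRG.31389 had 28.7 and 27.1 CPM in uncut larvae, against 50.9 and 49.8 CPM in aboral and 51.6 and 53.0 CPM in oral ends, likewise called against both (adjusted p = 0.0432 and 0.0187). In these 3 genes the uncut libraries were close to each other and every end library lay more than 1.5-fold above both.

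STRG.14048 had 6.04 and 6.17 CPM in uncut larvae, against 15.1 and 15.8 CPM in aboral and 10.9 and 11.8 CPM in oral ends, and was called against aboral ends (adjusted p = 0.0319). STRG.32829 had 3.51 and 4.21 CPM in uncut larvae, against 9.18 and 13.4 CPM in aboral and 9.46 and 10.3 CPM in oral ends. STRG.28262, chosen after its values were seen for its wide margin, had 6.72 and 24.8 CPM in uncut larvae, against 83.0 and 84.1 CPM in aboral and 68.5 and 74.2 CPM in oral ends. There the uncut libraries differed from each other by more than the ends did, and edgeR called it in no comparison. The 5 other genes below the ends were called by DESeq2 on the sums, with adjusted p between 1.74e-07 (STRG.31598) and 0.00652 (STRG.14048), and by edgeR with the replicate block against both ends.

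**Figure D3:**
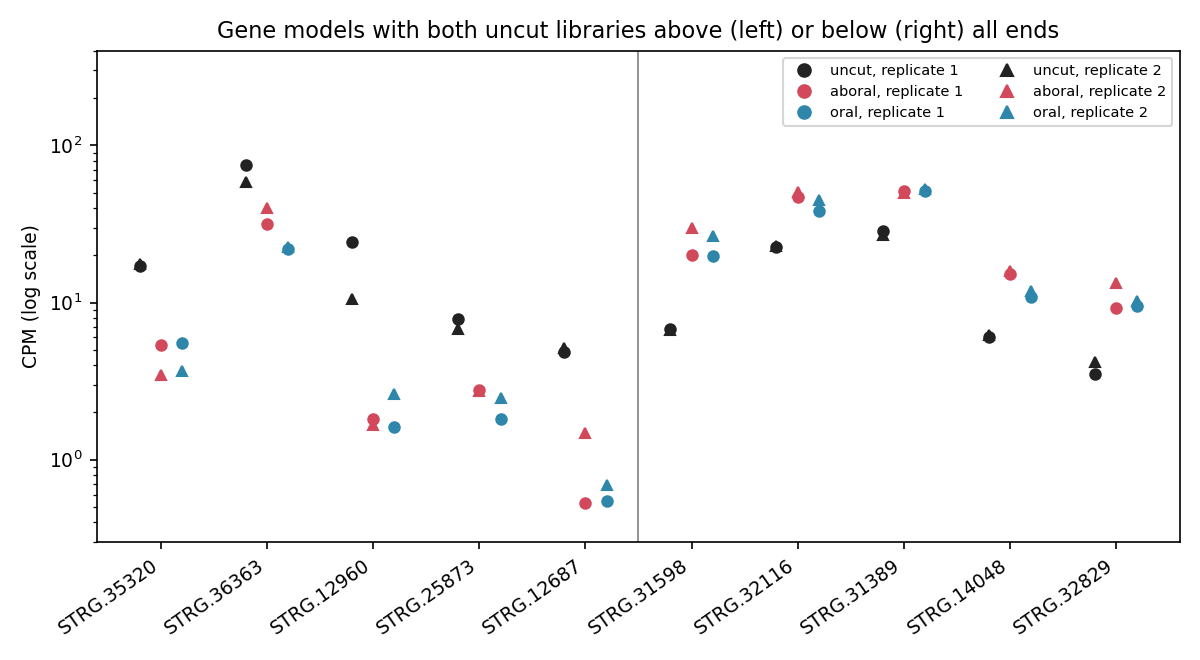
CPM on a log axis of the 10 unannotated gene models chosen by smallest p with both uncut libraries above (left of the line) or below (right) all 4 end libraries; uncut larvae black, aboral ends red, oral ends blue, circles replicate 1 and triangles replicate 2. By edgeR none passed the test against the summed ends, while DESeq2 called all 10 there, and 3 of those on the right were called by edgeR against both ends.

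Annotated genes outside the ends differed by less. Of the 10 named above the ends, the highest was STRG.36310, with a nucleotide hydrolase domain in its Clytia ortholog, at 10.1 and 8.53 CPM in uncut larvae, against 4.46 and 5.02 CPM in aboral and 7.18 and 5.96 CPM in oral ends (log2 fold change 0.72, SE 0.20). STRG.37979, a ShK domain-like marker of the specialized epidermis, had 87.8 and 79.9 CPM in uncut larvae, against 45.5 and 59.3 CPM in aboral and 67.2 and 74.7 CPM in oral ends. STRG.20980, whose ortholog is a lipoxygenase, an enzyme that oxidises polyunsaturated fatty acids, had 9.33 and 9.90 CPM in uncut larvae, against 4.19 and 6.92 CPM in aboral and 7.85 and 8.78 CPM in oral ends. In these 3 the oral ends came nearer to the uncut larvae than the aboral ends did.

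The homeodomain gene STRG.17814 had 293 and 286 CPM in uncut larvae, against 203 and 229 CPM in aboral and 245 and 271 CPM in oral ends. The other 6, all with log2 fold changes of 0.28 to 0.40, held domains of a subunit of the general transcription factor TFIID (STRG.14721), of respiratory complex I (STRG.40307), of the small mitochondrial ribosomal subunit (STRG.28326), of an FAD dependent oxidoreductase (STRG.10249), of a protein kinase (STRG.17982) and of a small ADP-ribosylation factor GTPase (STRG.2757). The margin of STRG.2757 was the thinnest, at 45.3 CPM in uncut 1 against 45.2 CPM in aboral 1. None of the 10 was called in any comparison, and with the block STRG.37979 was called higher than in aboral ends (adjusted p = 0.0472).

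Of the 10 annotated genes named below the ends, STRG.31792, with thrombospondin and leucine-rich repeats in its ortholog, had 27.2 and 41.6 CPM in uncut larvae, against 72.2 and 76.3 CPM in aboral and 50.8 and 65.2 CPM in oral ends (log2 fold change -0.93, SE 0.22). STRG.4791, whose ortholog is a histone-binding protein of the RBBP4 type, found in chromatin assembly complexes, had 5.48 and 6.49 CPM in uncut larvae, against 8.46 and 11.6 CPM in aboral and 12.9 and 12.6 CPM in oral ends (-0.92, SE 0.20). Both missed the threshold in all comparisons. With the block STRG.31792 was called lower than in aboral (adjusted p = 0.0107) and in oral ends (adjusted p = 0.0375), and STRG.4791 lower than in oral ends (adjusted p = 0.0273).

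Leucine-rich repeats stood in STRG.13880 (-0.87) and STRG.32925 (-0.38), immunoglobulin domains stood in STRG.1952 (-0.48), laminin domains in STRG.5971 (-0.61), CRAL/TRIO lipid-binding domains in STRG.41535 (-0.36) and a PLAT domain in STRG.41844 (-0.36). STRG.19808 and STRG.3919, with domains of unknown function, both stood at -0.38. None of the 10 was called.

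Of all 21657 genes, 0 passed edgeR's test against the summed ends. The 0 calls in 4 families that often answer to wounding or stress therefore say nothing about these families. The 4 tested bZIP genes, the domain of the Fos, Jun and ATF families some of whose members respond early to injury in many animals, had log2 fold changes from -0.22 to 0.47, a median of 0.09 and 0 calls. STRG.33487 was the most abundant gene of all, with 34548 and 39423 CPM in uncut larvae, against 43844 and 49695 CPM in aboral and 35665 and 44178 CPM in oral ends, and took 4.12% of the counts on average. Its bZIP domain is that of the Clytia ortholog. STRG.31059 had 793 and 903 CPM in uncut larvae, against 744 and 724 CPM in aboral and 879 and 755 CPM in oral ends, and STRG.36698 stood at 0.04.

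STRG.19776 had 23.2 and 21.6 CPM in uncut larvae, against 17.5 and 7.36 CPM in aboral and 28.4 and 11.7 CPM in oral ends, where replicates of an end differed more than the groups. The 20 tested heat shock and folding chaperones had a median of 0.02, from -0.13 (STRG.34039, a chaperonin) to 0.40 (STRG.43438, a prefoldin subunit), and 0 calls. Uncut larvae lay below all ends for 2 of them (10%, against 5.65% of all genes) by margins close to 0, the chaperonin STRG.3575 with 74.6 and 76.0 CPM in uncut larvae and 76.2 to 81.7 CPM in the ends, and the DnaJ protein STRG.24368 with 127 and 123 CPM in uncut larvae and 128 to 154 CPM in the ends. The 20 redox enzymes had a median of 0.09 and 0 calls against the summed ends, but 3 were called higher than in oral ends (0.946% of all genes) and 1 lower than in aboral ends (0.0941%). With the block these became 5 and 4, beside 438 and 268 of all 21254 genes. STRG.28599, called in both (adjusted p = 0.0326 against aboral and 0.00114 against oral ends), had 50.7 and 48.7 CPM in uncut larvae, against 104 and 123 CPM in aboral and 8.36 and 10.1 CPM in oral ends, and thus the middle place of an aboral gene. The redox list lay between the peroxidase STRG.28599 (-0.30) and the thioredoxin STRG.3860 (0.65), and the 14 proteasome subunits had a median of 0.03, between STRG.43011 (-0.15) and STRG.6986 (0.16).

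Among the lists with at least 7 tested members, ribosomal proteins had the highest median against the mixture, and this rested on the second pair of ends. Of 79 tested, 74 had a positive log2 fold change against the summed ends, with a median of 0.22 beside 0 over all genes, and 0 were called. Their summed level was 61740 and 55730 CPM in uncut larvae, against 51640 and 37420 CPM in aboral and 67450 and 42920 CPM in oral ends. Within replicate 1 the median log2 difference of uncut over ends was 0.02 and 49 of 79 were higher in uncut larvae, and within replicate 2 it was 0.47 and 74 of 79 were higher. The ends of replicate 2 lay below those of replicate 1 by a median of -0.59, with 77 of 79 lower, while uncut 2 and uncut 1 differed by -0.15. The source of the low second pair was not tested.

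Uncut larvae were above all 4 end libraries for 6 of the 79 (7.59%, against 5.47% of all genes), among them the L16p/L10e protein STRG.24257 with 1079 and 1072 CPM in uncut larvae and 882 to 1069 CPM in the ends. The list ran from STRG.105 (-0.78, SE 0.57) to STRG.1138 (0.84, SE 0.63), with STRG.105 at 71.9 and 21.3 CPM in uncut larvae, against 93.4 and 47.9 CPM in aboral and 112 and 67.7 CPM in oral ends. The 21 genes of mitochondrial energy metabolism showed the same split, with a median of 0.11 and 18 of 21 positive, but 0.04 within replicate 1 and 0.23 within replicate 2. STRG.24249, a subunit of respiratory complex I and the highest of them at 0.58, had 98.2 and 95.3 CPM in uncut larvae, against 76.3 and 27.8 CPM in aboral and 112 and 43.3 CPM in oral ends. The ATP synthase subunit STRG.34407 was lowest at -0.15.

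Axoneme and ciliary proteins, the machinery of the motile cilia that planulae swim with, had the lowest median of these lists. Of 52 tested, 14 had a positive log2 fold change, the median was -0.2 and 0 were called. Their summed level was 5840 and 6131 CPM in uncut larvae, against 6564 and 7084 CPM in aboral and 5986 and 7291 CPM in oral ends. The uncut median lay below the ends within replicate 1 (-0.1) and within replicate 2 (-0.25), so the direction did not turn between replicates. Higher in uncut larvae were 11 and 13 of 52, beside 10034 and 10395 of all 21254 genes. The size did shift with the ends, whose replicate 2 lay above replicate 1 by a median of 0.19. Crossed, uncut 2 lay at -0.04 against the ends of replicate 1, and uncut 1 at -0.3 against those of replicate 2. The source of this shift was not tested.

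Both uncut libraries lay below all ends for 6 of the 52 (11.5%, against 5.65% of all genes). All 6 lay only just below, with margins to the lowest end library of -0.02 to -0.07 on the log2 scale. Radial spoke protein 3 (STRG.34235), a part of the spokes that control ciliary beating, had 146 and 137 CPM in uncut larvae, against 182 and 201 CPM in aboral and 149 and 160 CPM in oral ends. STRG.5158, with the ASPM-SPD-2-Hydin domain of ciliary and centrosomal proteins, had 54.6 and 55.3 CPM in uncut larvae, against 64.5 and 75.03 CPM in aboral and 57.5 and 78.5 CPM in oral ends. Likewise below were the radial spokehead-like STRG.552 (142 and 138 CPM in uncut larvae, 144 to 154 CPM in the ends) and the CFA20 domain gene STRG.29663 (24.3 and 26.4 CPM, against 27.1 to 31.3 CPM). The other two, STRG.18656 and STRG.26012, hold the TIP49 ATPase domain of RuvB-like proteins, which also act in chromatin remodelling. Over the list the extremes were the DM10 domain gene STRG.5105 (-0.41) and the C1a complex subunit STRG.24616 (0.33).

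**Figure D4:**
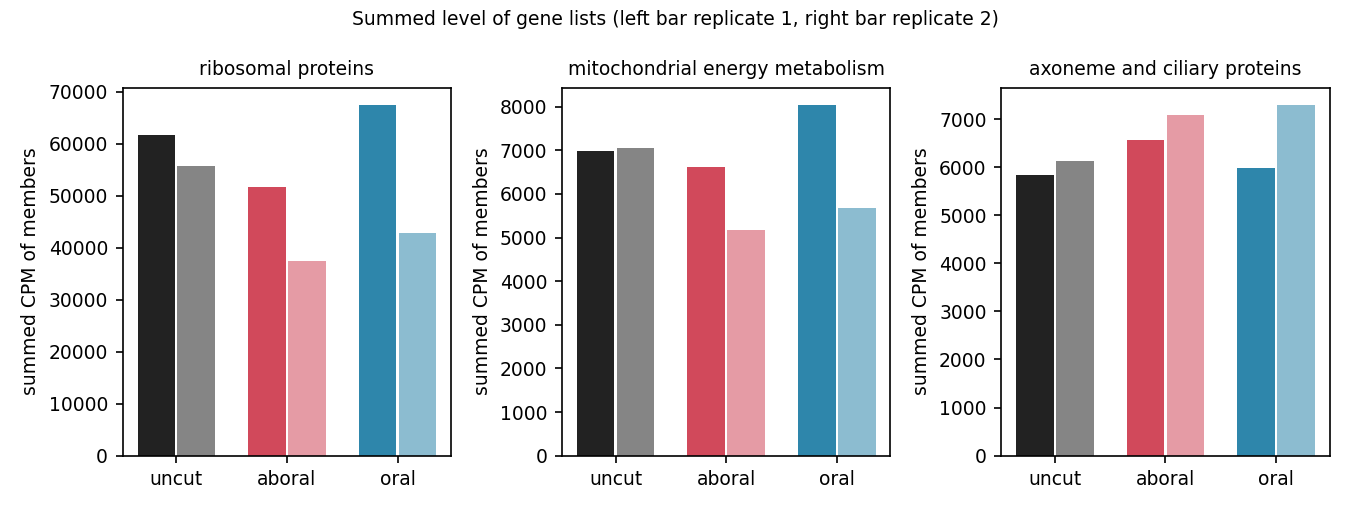
Summed CPM of the ribosomal proteins (79 tested), genes of mitochondrial energy metabolism (21) and axoneme and ciliary proteins (52) in uncut larvae, aboral ends and oral ends, with 1 bar per library (left replicate 1, right and paler replicate 2) from 0. Replicate 2 of both ends is low in the first 2 panels, while the uncut pair stays close together.

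Of 138 tested epidermal cluster genes the median was -0.03, from STRG.11197 (-0.43) to STRG.43438 (0.40). Uncut larvae lay below all ends for 13 of these (9.42%, against 5.65% of all genes) and above for 2 (1.45%, against 5.47%). The margins to the nearest end library were small, from 0 to -0.11 on the log2 scale for the 13, and 0.04 and 0.06 for the 2. Of the 13, 3 are also named in the ciliary, chaperone or RNA recognition lists. Collagens and matrix proteins had a median of -0.15, with 10 of 41 positive, between STRG.5971 (-0.61) and STRG.19993 (0.30). The last of these, with von Willebrand A and thrombospondin domains, had 899 and 1162 CPM in uncut larvae, against 1430 and 1577 CPM in aboral and 170 and 189 CPM in oral ends. Within replicates the matrix list lay at -0.08 and -0.26.

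The 49 tested homeodomain and forkhead genes had a median of -0.05, between the homeodomain gene STRG.20735 (-0.80) and FoxQ2-nematostella_a1 (STRG.21723, 0.30), which the study also lists as FoxQ2a. It had 72.7 and 58.4 CPM in uncut larvae, against 106 and 105 CPM in aboral and 2.11 and 0.939 CPM in oral ends. The 43 G protein-coupled receptors had a median of 0, between STRG.17599 (-0.46) and STRG.16584 (0.93), which is a rhodopsin family receptor with 3.17 and 2.08 CPM in uncut larvae, 2.61 and 2.94 CPM in aboral and 0 and 0 CPM in oral ends. The 26 ion channels had a median of -0.04, between the polycystin STRG.39920 (-0.39) and TRP-like STRG.2920 (0.27), and the 24 peptidases a median of -0.06 with TLL1-like STRG.9598 highest at 0.24.

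The 47 RNA recognition and splicing proteins had a median of 0.04, between STRG.27354 (-0.25) and the LSM domain gene STRG.23471 (0.53), and the 22 genes of DNA replication and histones a median of 0.04, between STRG.3363 (-0.21) and the core histone STRG.35460 (0.54). The histone had 136 and 52.9 CPM in uncut larvae, so uncut 1 alone stood above the 58.2 to 82.9 CPM of the ends. Medians were 0.12 for 14 specialized epidermis, 0.07 for 13 neural, -0.1 for 15 gland mucous and -0.18 for 8 gastroderm and digestive filament cluster genes. None of these lists had a member called against the summed ends. The list members farthest from the mixture in the uncut larvae among the study's oral genes were STRG.15486 (0.72, SE 0.56) and STRG.7502 (-0.60, SE 0.24), and the highest among its aboral genes was STRG.29969 (1.12, SE 0.35).

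**Figure D5:**
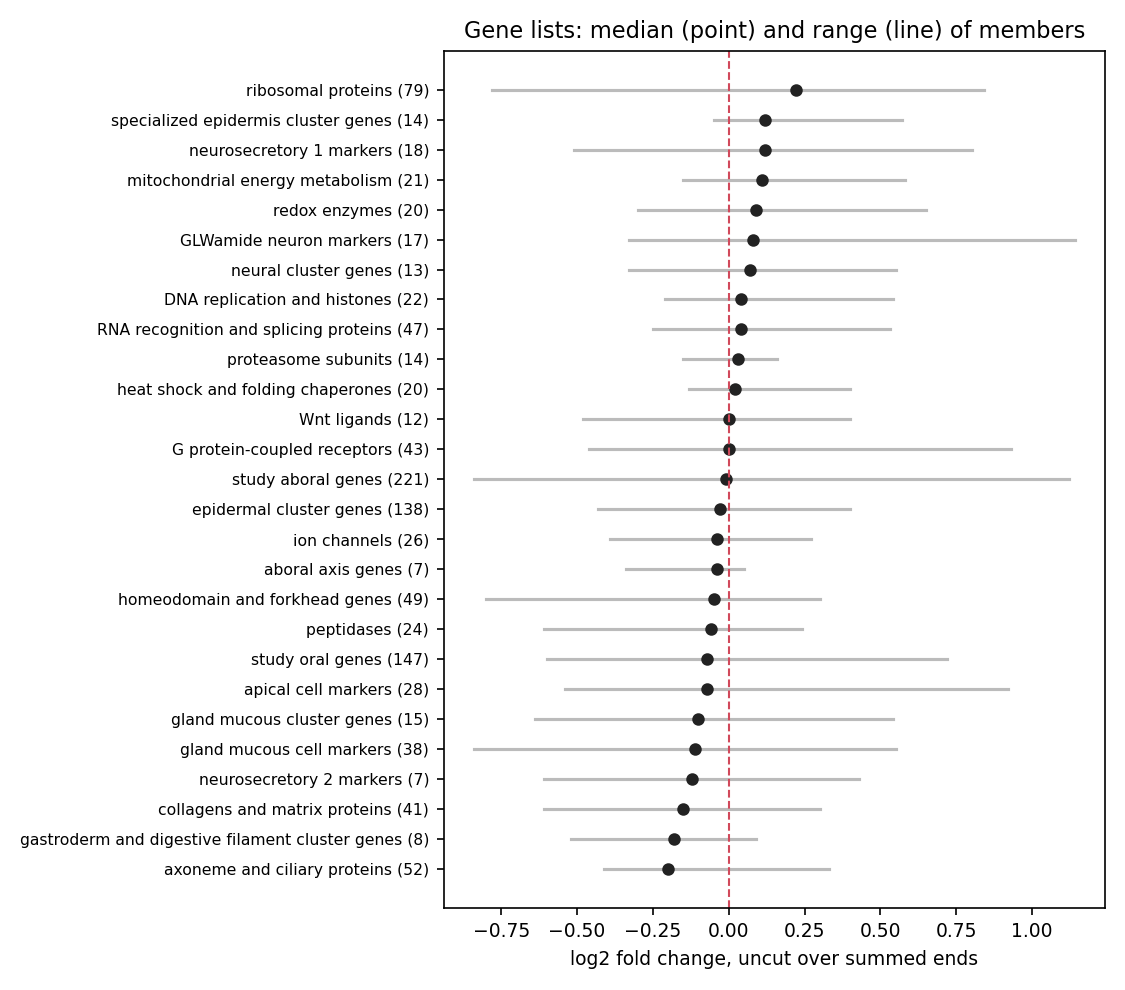
Median (point) and range (line) of the log2 fold change of uncut larvae over summed ends for each list with at least 7 tested members, with the number tested in brackets and the median of all genes as a dashed line. Medians run from -0.2 for axoneme and ciliary proteins to 0.22 for ribosomal proteins, and no member was called.

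The most abundant genes after STRG.33487 differed little. STRG.35165, with an RNA recognition motif in its ortholog, had 8894 and 9304 CPM in uncut larvae, against 9746 and 9052 CPM in aboral and 8709 and 7830 CPM in oral ends. The unannotated STRG.20329, STRG.17357 and STRG.30410 had log2 fold changes of -0.22, 0.06 and -0.03 against the summed ends. These 5 gene models together took 6.48% and 6.85% of the counts in uncut larvae and 6.38% to 8.09% in the end libraries.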

How the data were processed

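Raw counts per gene model were deposited by the authors, 1 file per library, made with STAR in its gene count mode from paired-end DNBseq reads on an Astroides genome that they assembled with StringTie gene models. The strand setting is not given in the sources used here. The files hold identifiers without names, so names and domains came from the study's annotation lists, often from the Clytia ortholog, for 1443 gene models.

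Counts were analysed in R 4.3.3 with edgeR 4.0.16 (filterByExpr, TMM, glmQLFit in legacy mode, glmQLFTest, two-sided, Benjamini-Hochberg adjusted p under 0.05) and, as an alternative, DESeq2 1.42.0. The functions were tested on simulated data. Uncut libraries were set against sums of same-numbered ends, and against each end in 1 fit of 6 libraries with 3 residual degrees of freedom, to which the prior added 3.68. Scaled sums were rounded to whole counts, leaving 2 residual degrees of freedom and a prior of 3.73. A mean on the log2 scale would lie below an even mixture for genes that differ between the ends. With 2 libraries a group the p-values measure the spread between these pools. Position and list values carry no test.

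Same-numbered libraries were taken as a pair because each biological replicate, per the study's methods, comprised material of both ends and of uncut larvae. Differences between replicates correlated across 21254 genes at r = 0.643 between aboral and oral, 0.212 between aboral and uncut and 0.2 between oral and uncut groups. Blocked values are given for many, though not all, of the genes and counts whose calls they changed.

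Named genes were, in each direction, the 10 annotated and 5 unannotated genes outside all ends with at least 5 CPM in the higher group, by smallest p since none was called, all members of the small lists, the highest and lowest member of each other list, and the 5 most abundant genes. List members outside all ends, and STRG.28262, were picked after their values were seen. The comparisons and the 37 lists were chosen with earlier results of these data known. Of the 5 bZIP identifiers 4 matched the files. Both single-end comparisons share the uncut libraries. The cluster gene lists rest on the part of the marker table used here. Clytia and Pocillopora libraries were not analysed here.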

Additional observations from a re-analysis of the deposited data

How the results depend on the processing

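Against the summed ends, edgeR called 0 genes under size factors of DESeq2 (RLE), without the filter, with the replicate block (1 residual degree of freedom), against a 1.5-fold margin, with 1:2 and 2:1 mixtures of the ends and without any 1 library or sum. DESeq2 called 23 higher and 16 lower, crossed sums 1 and 1, and the mean of both ends on the log2 scale 44 higher and 3 lower. On that scale, which by construction lies below an even mixture for polarised genes, named genes turned to positive values: 0.99 for STRG.21847 (0.29 at 1 part aboral to 2 parts oral), 3.09 for STRG.14077, 1.48 for STRG.40383, 0.23 for STRG.11400, 0.73 for STRG.7502, 0.62 for STRG.28599 (0.17 at 1 part aboral to 2 parts oral), 0.51 for STRG.17599, 1.31 for STRG.9929 and 0.42 for STRG.20735.

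Against aboral ends, higher and lower calls were 407 and 238 with DESeq2, 444 and 268 with the replicate block, 49 and 1 past 1.5-fold, and 50 and 5 with the 4 uncut and aboral libraries alone. Without 1 library they ran from 13 to 16 higher and from 0 to 2 lower. Against oral ends they were 427 and 178 with DESeq2, 438 and 172 with the replicate block, 154 and 0 past 1.5-fold, and 145 and 4 with the 4 uncut and oral libraries alone. Without 1 library they ran from 99 to 133 higher and from 0 to 6 lower. The cause of these differences was not tested.

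Counts outside the ends were 599 above and 621 below among genes of at least 5 CPM, and within 1.5 times of those reported on total counts and under DESeq2 size factors. The median position without 1 uncut library was 0.496 to 0.509 for aboral genes and 0.536 to 0.538 for oral genes, which on total counts stood at 0.54. Of 117 named genes, 13 passed the threshold under at least 1 alternative. Against the summed ends, with 2 libraries a side, edgeR passed no gene of the reported sums at any size of difference, so its 0 calls say nothing of agreement with the mixture. With the replicate block 23 of the named genes gained a call against aboral and 14 against oral ends, and 0 lost one. Besides DESeq2, STRG.35320 and STRG.31598 passed with crossed sums (adjusted p = 0.0358 each).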
